A study of Mus musculus with 2 samples.

Results

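The core circadian clock genes are the 10 mouse genes Arntl, Clock, Npas2, Per1, Per2, Per3, Cry1, Cry2, Nr1d1 and Nr1d2. They were chosen by gene symbol in the transcript tables and joined by gene identifier to the gene tables, where all 10 were found among 81881 listed entries. Total RNA was sequenced from heart tissue of male B6CASTF1/J mice aged 36 days, and 1 group with 2 biological replicates was labelled. B6CASTF1/J is the F1 cross of the B6 and CAST strains, and reads from the parental alleles are not separated in these tables. Both hearts carry no treatment in the labels, and their biosamples share 1 donor entry. The sources used here do not say whether that entry stands for 1 animal or for the strain, nor do they give the hour of dissection or the light schedule.

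The mammalian clock is a feedback loop of transcription and protein turnover. ARNTL, also called BMAL1, pairs with CLOCK or with its relative NPAS2, and the pair binds E-boxes in DNA and switches on the Per, Cry, Nr1d1 and Nr1d2 genes. PER and CRY proteins then enter the nucleus and inhibit the pair that induced them, while the nuclear receptors REV-ERBα and REV-ERBβ, made from Nr1d1 and Nr1d2, repress Arntl and Npas2. The loop runs in heart muscle cells of mice as well as in the brain, and the RNA of most of these genes cycles over the day.

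The libraries held 41846508 expected counts in replicate 1 and 42481559 in replicate 2, with 0.487% and 0.470% on ERCC spike-ins, the synthetic control RNAs added to each library. Expected counts are the authors' estimates of reads per gene, and the 10 clock genes together took 0.0312% of them in replicate 1 and 0.0348% in replicate 2. The tissue label was checked against 8 cardiomyocyte markers, which summed to 27742 TPM (a level scaled to transcript length and library size) in replicate 1 and 30436 TPM in replicate 2. Liver markers summed to 0.29 TPM in replicate 1 and 0.30 TPM in replicate 2, and Fgb and Serpina1a were at 0 in both. Skeletal muscle markers summed to 1.53 TPM in replicate 1 and 1.66 TPM in replicate 2, of which Tnni2 held 1.10 and 1.26 TPM. Myh1, Myh2 and Myh4 had 0 counts in replicate 1, and 1, 1 and 5 in replicate 2. A second quantification by the authors gave them 10.2, 8.75 and 8.45 in replicate 1 and 12.4, 7.58 and 14.7 in replicate 2. The hearts differed in other cell type markers. The 6 erythroid markers summed to 20328 TPM in replicate 1 and 9336 TPM in replicate 2. All 6 were over 2-fold apart, beside 1.28% of all genes at the count minimum used below. The 6 adipocyte markers summed to 95.6 TPM in replicate 1 and 22.4 TPM in replicate 2. The 5 that reached that minimum were all over 1.5-fold higher in replicate 1, beside 2.58% of all genes. None of the fibroblast and endothelial markers, 6 each, was 1.5-fold apart, which is near the share of 4.27% over all genes. Of 6 macrophage markers Cx3cr1 alone was 1.5-fold apart, with 73 and 255 expected counts in replicates 1 and 2. In bulk tissue, fewer cells of a type and less RNA per cell cannot be told apart.

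All 10 clock genes stood at 1 TPM or more in both hearts, as did 10938 of 21938 nuclear protein-coding genes, or 49.9%. By mean TPM, the REV-ERB genes led and Npas2 and Per2 came last. Nr1d1 averaged 31.1 ± 11.7 TPM, Nr1d2 26.3 ± 8.97 TPM and Per1 18.9 ± 8.95 TPM (SD, n = 2 hearts, here and below). Clock followed with 12.1 ± 1.20 TPM, which made 4 genes above 8.69 TPM, the median of the detected nuclear protein-coding genes. Cry2 averaged 6.84 ± 1.69 TPM, Arntl 6.53 ± 2.51 TPM and Cry1 4.47 ± 0.424 TPM. Per3 averaged 2.78 ± 1.75 TPM, and Per2 and Npas2 both 2.59 TPM, with an SD of 0.460 and 1.28. Of the 9 neighbouring pairs in this order, 7 overlapped in their 2-heart ranges, and the pairs Clock and Cry2, and Cry1 and Per3, did not. The order differed between the hearts for 7 genes: Per1 was the highest and Per3 the lowest in replicate 1, while Nr1d1 was the highest and Npas2 the lowest in replicate 2. In the second quantification Per1 did not lead in replicate 1, with 18.1 TPM, below Nr1d1 with 24.6 TPM and Nr1d2 with 23.4 TPM. In the first, the highest gene stood 16.4 times above the lowest in replicate 1 and 23.4 times in replicate 2.

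**Figure D1:**
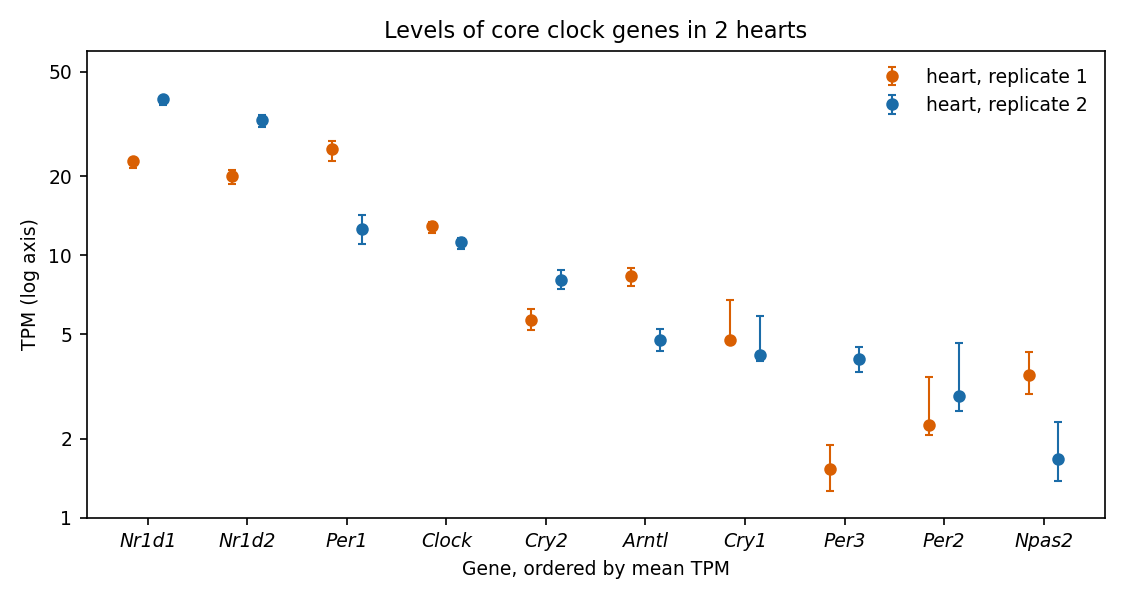
TPM of each core clock gene (log axis) in the hearts of replicate 1 (orange) and replicate 2 (blue), ordered by mean TPM, with bars for the credibility bounds deposited by the authors. Arntl, Npas2 and Per1 lie higher in replicate 1, while Per3, Nr1d1 and Nr1d2 lie higher in replicate 2.

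Clock genes were set between the hearts by the log2 ratio of replicate 1 over replicate 2, computed from expected counts after TMM scaling (a trimmed mean that matches library sizes). A gene was called apart when its expected counts averaged at least 50 and its hearts differed at least 2-fold. No test was made, because with 2 hearts the smallest p of an exact sign permutation is 0.5, and the calls are by size alone. Intervals are exact 95% Clopper-Pearson intervals and cover counting error only. By this rule 2 of the 10 clock genes were called, Npas2 higher in replicate 1 and Per3 higher in replicate 2, against 1.28% of the 12541 genes at the count minimum. At 1.5-fold, 6 of 10 were called, against 4.27% of all those genes. Of these, Arntl, Npas2 and Per1 were higher in replicate 1, where 2.58% of all genes were called, and Per3, Nr1d1 and Nr1d2 were higher in replicate 2, where 1.69% were called.

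The clock genes lay on both sides of equality, 5 higher in each heart, and their median log2 ratio was 0.01, beside -0.00 for all genes at the count minimum. Their median absolute log2 ratio was 0.71, beside 0.11 for all those genes and 0.09 for the 7267 genes in the same range of mean counts. By role, all 3 activators were higher in replicate 1 and both REV-ERB genes were higher in replicate 2. The PER and CRY genes were divided, 2 higher in replicate 1 and 3 higher in replicate 2. Of all genes at the count minimum, 6255 of 12541 were higher in replicate 1. Groups of 2 to 5 genes are too small to show that direction follows role.

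**Figure D2:**
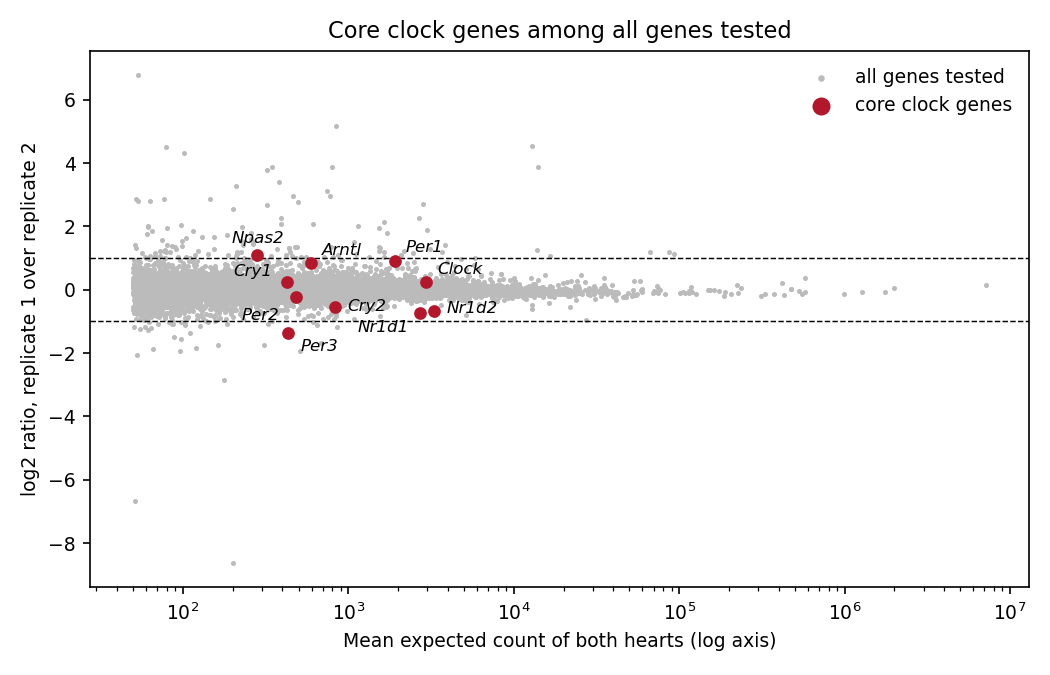
Mean expected count of both hearts (log axis) against the log2 ratio of replicate 1 over replicate 2, for the 12541 genes at the count minimum (grey) and the 10 core clock genes (red), with dashed lines at 2-fold. Npas2 lies above the upper line and Per3 below the lower one, with Per1 and Arntl just under the upper line.

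Arntl encodes the obligate partner of the activator pair (ENSMUSG00000055116.8, mm10 chr7:113207465-113314126, plus strand). It had 755 expected counts and 8.30 TPM in replicate 1, against 435 expected counts and 4.75 TPM in replicate 2. The log2 ratio of Arntl was 0.84 (0.67 to 1.01), or 1.79-fold. Replicate 1 was thus the higher heart by more than counting error, below the 2-fold rule. Of the 6 annotated transcripts, the protein-coding Arntl-201 of 2908 nt held 75.8% of the gene's TPM in replicate 1 and 76.0% in replicate 2.

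Promoter windows are shown for Arntl, Per1, Per3 and Cry1, which held an E-box, a D-box or a ROR element, because the loop is wired through such sites. Windows of 250 bases before to 50 bases after each gene start were taken from RefSeq on GRCm38.p6, the same assembly as mm10. Of the 10 genes, 9 matched, with 13 windows in all, while Per2 had no window and was not searched. Both strands were searched for the E-box CACGTG and the E′-box CACGTT, bound by the activator pair, and for the D-box TTANGTAA, bound by DBP, TEF, HLF and NFIL3. The ROR element, bound by ROR and REV-ERB receptors, was searched as TAGGTCA and TGGGTCA, and the CRE, bound by CREB, as TGACGTCA. No match of one motif overlapped a match of another in the windows of the clock genes, and 7 of the 13 windows held no match. Of all 32851 mouse windows, 7.15% held the E-box, 4.68% the E′-box, 2.32% the D-box, 2.61% TAGGTCA, 3.98% TGGGTCA and 1.79% the CRE. An Arntl window (chr7:113207261-113207560, plus strand) held the ROR element TAGGTCA, in capitals, 30 bases after the RefSeq start.
Arntl window: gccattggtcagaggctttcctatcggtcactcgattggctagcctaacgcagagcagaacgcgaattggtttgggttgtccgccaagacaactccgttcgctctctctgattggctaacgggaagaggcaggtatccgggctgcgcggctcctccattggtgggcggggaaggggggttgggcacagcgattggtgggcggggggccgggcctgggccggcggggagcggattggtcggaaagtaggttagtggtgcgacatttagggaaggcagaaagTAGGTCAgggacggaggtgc
A match is a description of letters in the reference assembly, and nothing was measured on binding in these hearts. The parental alleles of these mice were not read at these sites.

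Clock encodes the partner of ARNTL in most mouse tissues (ENSMUSG00000029238.11, chr5:76209868-76304792, minus strand). It had 3170 expected counts and 12.9 TPM in replicate 1, against 2768 expected counts and 11.3 TPM in replicate 2. Its log2 ratio was 0.24 (0.17 to 0.31), the smallest distance between the hearts among the activators. Its leading transcript held a smaller share than that of Arntl. Clock-201 held 50.1% of the gene's TPM in replicate 1 and 52.6% in replicate 2, and Clock-205, a longer protein-coding form of 9744 nt, held 28.9% and 27.5%. In the second quantification Clock-201 held 61.6% and 63.3% in replicates 1 and 2, and Clock-205 held 17.0% and 16.4%.

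Npas2 encodes the CLOCK relative that can take its place in the pair (ENSMUSG00000026077.15, chr1:39193731-39363236, plus strand). It had 377 expected counts and 3.49 TPM in replicate 1, against 181 expected counts and 1.68 TPM in replicate 2. At 1.10 (0.84 to 1.37), or 2.14-fold, its log2 ratio was the largest toward replicate 1 among the clock genes. The interval reaches below 2-fold. Npas2-201 held 75.4% of the TPM in replicate 1 and 74.9% in replicate 2, and 64.6% and 100% in the second quantification. The short Npas2-203 of 484 nt was given 24.6% and 19.6%, but 35.4% and 0 in the second quantification. Set against Clock within each heart, Npas2 stood at 0.270 of its TPM in replicate 1 and 0.149 in replicate 2. Arntl stood at 0.641 of the Clock TPM in replicate 1 and 0.422 in replicate 2. In the second quantification Npas2 stood at 0.328 and 0.118 of the Clock TPM in replicates 1 and 2, and Arntl at 0.666 and 0.429. The RNA ratios of the activator genes thus differed between the hearts, with Clock the most abundant of the 3 RNAs in both. Their proteins were not measured.

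Per1 encodes a PER repressor whose RNA also responds quickly to hormones and light in mice (ENSMUSG00000020893.17, chr11:69095217-69109960, plus strand). It had 2485 expected counts and 25.3 TPM in replicate 1, against 1349 expected counts and 12.6 TPM in replicate 2. Its log2 ratio was 0.93 (0.83 to 1.02), or 1.90-fold by counts. The ratio of gene TPM was 2.00-fold in the first quantification, while the second gave 18.1 TPM in replicate 1 and 11.0 TPM in replicate 2, which is below 2-fold. A Per1 window (chr11:69098699-69098998, plus strand) held an E-box, in capitals, 166 bases before the start.
Per1 window: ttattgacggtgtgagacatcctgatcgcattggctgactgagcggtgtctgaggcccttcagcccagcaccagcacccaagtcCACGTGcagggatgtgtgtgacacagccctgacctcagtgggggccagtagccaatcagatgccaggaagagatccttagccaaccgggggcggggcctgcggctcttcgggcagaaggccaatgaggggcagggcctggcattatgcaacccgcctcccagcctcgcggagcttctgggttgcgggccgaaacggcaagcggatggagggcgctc
Per1-201 was the leading transcript in both hearts, with 54.6% of the TPM in replicate 1 and 56.9% in replicate 2. In the second quantification Per1-201 held 86.2% and 53.8%. The short Per1-204 of 496 nt was given 37.3% and 30.2% in replicates 1 and 2, but 0 and 9.55% in the authors' second quantification, so its share is uncertain.

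Per2 encodes a PER repressor needed for lasting rhythm in mice (ENSMUSG00000055866.9, chr1:91415982-91459324, minus strand). It had 437 expected counts and 2.26 TPM in replicate 1, against 528 expected counts and 2.91 TPM in replicate 2. The log2 ratio of Per2 was -0.23 (-0.41 to -0.04), the opposite direction to Per1 and a small distance. Per2-201 held 100% of the TPM in replicate 1 and 93.6% in replicate 2. The short Per2-202 of 231 nt was given 0.19 TPM in replicate 2, from 0.84 expected counts. In the second quantification Per2-201 held 100% in both hearts.

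Per3 encodes the third PER protein, which is dispensable for rhythm in mice (ENSMUSG00000028957.12, chr4:151003652-151044665, minus strand). It had 238 expected counts and 1.54 TPM in replicate 1, against 630 expected counts and 4.02 TPM in replicate 2. The hearts differed by a log2 ratio of -1.36 (-1.58 to -1.14), or 2.56-fold, the largest distance of all 10 clock genes. The whole interval lies past 2-fold toward replicate 2. The Per3 window (chr4:151044616-151044915, minus strand) held a pair of D-boxes, in capitals, 205 and 158 bases before the start. No other clock gene window searched held a D-box, and Per2 had no window.
Per3 window: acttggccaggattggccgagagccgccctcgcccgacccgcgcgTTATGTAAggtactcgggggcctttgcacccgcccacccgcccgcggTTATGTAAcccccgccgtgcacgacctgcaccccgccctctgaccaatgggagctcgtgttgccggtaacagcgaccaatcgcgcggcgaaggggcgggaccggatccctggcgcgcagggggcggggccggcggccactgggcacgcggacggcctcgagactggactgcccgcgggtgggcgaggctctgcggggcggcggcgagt
Within replicate 1 the TPM of Per1 was 11.2 times that of Per2 and 16.4 times that of Per3, and within replicate 2 it was 4.33 and 3.14 times. By the second quantification these ratios were 7.12 and 12.1 in replicate 1, and 3.69 and 2.39 in replicate 2. The order of Per2 and Per3 switched: Per3 stood at 0.681 of Per2 in replicate 1 and at 1.38 in replicate 2.

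Cry1 encodes the cryptochrome that is the stronger repressor of the pair (ENSMUSG00000020038.10, chr10:85131700-85185064, minus strand). It had 459 expected counts and 4.77 TPM in replicate 1, against 397 expected counts and 4.17 TPM in replicate 2. Its log2 ratio was 0.25 (0.06 to 0.45), close to that of Clock. The Cry1 window (chr10:85185005-85185304, minus strand) was the only one of the 13 with both E-box forms, the E-box 60 bases and the E′-box 79 bases before the start. Both are in capitals, the E′-box as AACGTG, the reverse complement of CACGTT.
Cry1 window: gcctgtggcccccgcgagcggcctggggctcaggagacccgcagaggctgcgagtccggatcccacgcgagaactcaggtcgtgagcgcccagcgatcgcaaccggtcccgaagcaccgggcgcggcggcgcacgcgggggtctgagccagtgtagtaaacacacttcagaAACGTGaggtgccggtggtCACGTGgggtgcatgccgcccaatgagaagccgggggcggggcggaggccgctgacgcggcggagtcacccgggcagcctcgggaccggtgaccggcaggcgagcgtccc
Cry1-201 held 97.3% of the TPM in replicate 1 and 95.7% in replicate 2.

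Cry2 encodes the other cryptochrome (ENSMUSG00000068742.11, chr2:92403646-92434043, minus strand). It had 661 expected counts and 5.64 TPM in replicate 1, against 991 expected counts and 8.03 TPM in replicate 2. The log2 ratio of Cry2 was -0.54 (-0.68 to -0.40), or 1.45-fold, just inside the 1.5-fold bound. Cry2 exceeded Cry1 in both hearts, with a TPM ratio of 1.18 in replicate 1 and 1.93 in replicate 2. Cry2-201 held 78.6% of the TPM in replicate 1 and 89.6% in replicate 2, while the shorter protein-coding Cry2-202 held 15.6% and 2.84%. An E′-box lay 166 bases before the start of Cry2, and another 28 bases before that of Nr1d1.

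Nr1d1 encodes REV-ERBα, a receptor that binds heme and recruits the NCoR and HDAC3 corepressor (ENSMUSG00000020889.11, chr11:98767932-98775333, minus strand). It had 1979 expected counts and 22.8 TPM in replicate 1, against 3419 expected counts and 39.4 TPM in replicate 2. Its log2 ratio was -0.74 (-0.82 to -0.66), or 1.67-fold. Nr1d1 lies tail to tail with Thra, the thyroid hormone receptor gene on the opposite strand, and 263 of its annotated exon bases, 8.55%, overlap Thra exons. Thra had 2650 and 2534 expected counts in replicates 1 and 2 and a log2 ratio of 0.11, and the sources used here do not say whether the counting used strand.

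Nr1d2 encodes REV-ERBβ, which acts with REV-ERBα (ENSMUSG00000021775.11, chr14:18204054-18239127, minus strand). It had 2494 expected counts and 19.99 TPM in replicate 1, against 4105 expected counts and 32.7 TPM in replicate 2. The log2 ratio of Nr1d2 was -0.67 (-0.75 to -0.60), or 1.60-fold. The balance of the REV-ERB genes was nearly the same in both hearts, with a TPM ratio of Nr1d1 over Nr1d2 of 1.14 in replicate 1 and 1.21 in replicate 2. The balance against their target Arntl was not: Nr1d1 stood at 2.74 times the Arntl TPM in replicate 1 and 8.29 times in replicate 2. Nr1d2 stood at 2.41 times the Arntl TPM in replicate 1 and 6.88 times in replicate 2. Summed by role, the REV-ERB genes held 40.0% of the TPM of all 10 clock genes in replicate 1 and 59.3% in replicate 2. Activators held 23.1% and 14.6%, and PER and CRY genes 36.9% and 26.1%, while the sum of all 10 genes was 107 TPM in replicate 1 and 121 TPM in replicate 2. These sums are from the first quantification, where Per1 had 25.3 and 12.6 TPM in replicates 1 and 2. In the second Per1 had 18.1 and 11.0 TPM, so the shares depend on the quantification.

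**Figure D3:**
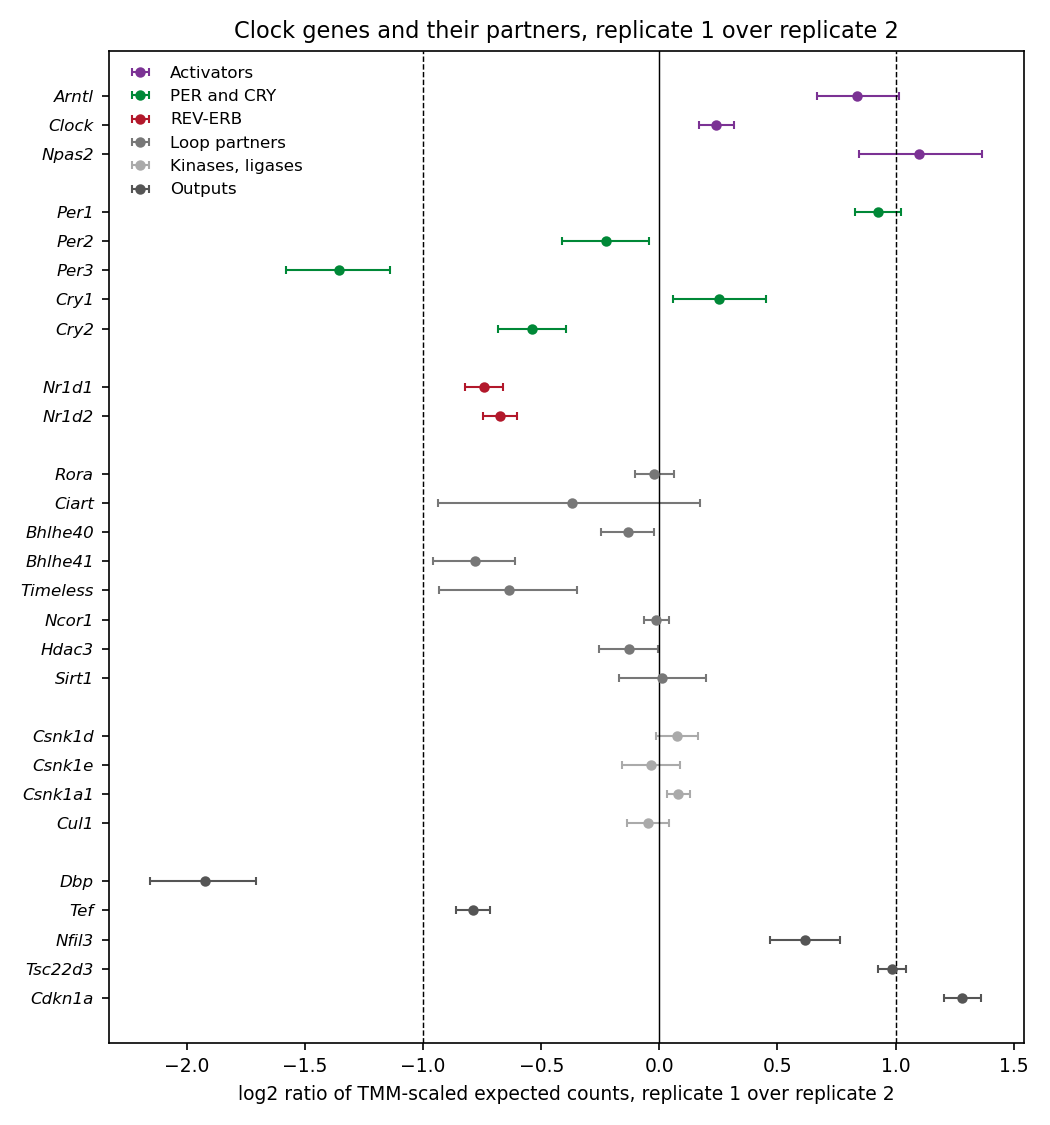
Log2 ratio of TMM-scaled expected counts, replicate 1 over replicate 2, for the core clock genes and those loop partners, kinases, ubiquitin ligase genes and clock outputs whose log2 ratios by counts are given in the text. Bars are 95% Clopper-Pearson intervals and dashed lines mark 2-fold. The kinases and ligases shown lie within -0.05 and 0.08, while clock genes spread between -1.36 and 1.10 and the outputs shown between -1.92 and 1.28.

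The other genes of the pathway were described from lists by their counts. Of 13 loop partners, 11 reached the count minimum. At 2-fold 0 were called, which is near the share of 1.28% over all genes. At 1.5-fold Bhlhe41 and Timeless were called, both higher in replicate 2, beside 1.69% of all genes, with a list median of -0.13. Bhlhe41 encodes DEC2, a repressor that competes for E-boxes, and had 426 expected counts in replicate 1 and 756 in replicate 2, a log2 ratio of -0.78 (-0.96 to -0.61). Timeless had 160 expected counts in replicate 1 and 257 in replicate 2, a log2 ratio of -0.64 (-0.93 to -0.35). Timeless was below 1.5-fold in the second quantification, at -0.47, and by gene TPM, at -0.56, while Bhlhe41 stood at -0.81 and -0.88. Bhlhe40, which encodes the related DEC1, had a log2 ratio of -0.13. Rora encodes a receptor that activates through the DNA sites the REV-ERBs repress. Rora had 2368 expected counts in replicate 1 and 2479 in replicate 2, a log2 ratio of -0.02. Within each heart Nr1d1 stood at 1.99 times the Rora TPM in replicate 1 and 3.18 times in replicate 2. Ciart, a repressor of the activator pair also called CHRONO, had 50 and 66.9 expected counts in replicates 1 and 2, and its log2 ratio of -0.37 (-0.94 to 0.17) was within counting error. By TPM it lay the other way, at 2.60 in replicate 1 and 1.65 in replicate 2. Ncor1 and Hdac3, which encode the corepressor of the REV-ERBs, had log2 ratios of -0.01 and -0.13. Sirt1, a deacetylase, was the highest of the list at 0.01.

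Of 10 kinase and ubiquitin ligase genes that act on PER and CRY proteins, 9 reached the count minimum and 0 were called at either fold, with a median of -0.01. Over all genes 4.27% were called at 1.5-fold, so a count of 0 of 9 is near that share. Csnk1d and Csnk1e, the casein kinases that phosphorylate PER proteins, had log2 ratios of 0.07 and -0.04. By gene TPM they stood at -0.04 and -0.18, so the sign of Csnk1d depends on the measure. The highest by counts was Csnk1a1 at 0.08 and the lowest Cul1 at -0.05, and by gene TPM Btrc was the highest at 0.16 and Cul1 the lowest at -0.21.

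Among 12 clock outputs, all measured, 2 were called at 2-fold and 5 at 1.5-fold, beside 1.28% and 4.27% of all genes, with a median of -0.17. Dbp encodes a factor of D-boxes and is itself driven through E-boxes. It had 207 expected counts and 5.01 TPM in replicate 1, against 813 expected counts and 16.4 TPM in replicate 2, a log2 ratio of -1.92 (-2.16 to -1.71). Its relative Tef had 2406 expected counts in replicate 1 and 4289 in replicate 2, a log2 ratio of -0.79 (-0.86 to -0.72). Nfil3, which encodes a repressor of the same D-boxes, lay the other way at 0.62 (0.47 to 0.77), with 919 expected counts in replicate 1 and 618 in replicate 2. The TPM of Dbp was 0.354 of that of Nfil3 in replicate 1 and 1.72 times it in replicate 2, and 0.604 of that of Arntl in replicate 1 and 3.45 times it in replicate 2. Cdkn1a, the cell cycle inhibitor p21, was the highest of the list at 1.28, with 4388 expected counts in replicate 1 and 1862 in replicate 2. Tsc22d3, which encodes the glucocorticoid-induced protein GILZ, followed at 0.98.

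Members of other gene lists also differed between the same hearts. Of 12 immediate early genes, which respond to stimuli within minutes, 10 reached the count minimum and 5 were called at 1.5-fold higher in replicate 1, beside 2.58% of all genes. Of these, 4 were called at 2-fold, beside 1.28% of all genes in either direction. Zfp36 had a log2 ratio of 1.35, Atf3 of 1.53, Fos of 1.87 and Nr4a1 of 3.13, while Myc was the lowest at -0.25. Of 8 glucocorticoid-responsive genes, a list that holds Per1, Cdkn1a and Tsc22d3, 6 were called at 1.5-fold, all higher in replicate 1, again beside 2.58% of all genes. Errfi1 was the highest at 2.00 and Sgk1 stood at 1.35, while Fkbp5 lay at 0.08 and Zbtb16 was the lowest at -0.06. The adipocyte markers called at 2-fold were Ucp1, the uncoupling protein of brown fat, at 5.17, Plin1 at 3.89, Cidec at 3.26 and Adipoq at 2.88. Ucp1 had 1635 expected counts in replicate 1 and 46 in replicate 2. The erythroid markers Hbb-bs, Hbb-bt, Hba-a1, Hba-a2, Alas2 and Slc4a1 lay between 1.13 and 1.72. The 8 cardiomyocyte markers were all below 1.5-fold, which is near the share of 4.27% of all genes called at 1.5-fold. With a median of -0.10, all 8 were higher in replicate 2, beside 6286 of 12541 genes at the count minimum. The part of these lists in the differences of the clock genes was not tested.

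All 10 clock genes had the same leading transcript in both hearts and in both of the authors' quantifications. The share held by that transcript moved by over 1 SD in the second quantification for 7 genes. Of the 42 annotated transcripts of the clock genes, 33 were above 0 TPM in both hearts. Protein-coding transcripts held 90% or more of the gene's TPM in both hearts of the first quantification for 7 genes. The exceptions were Per3, Nr1d2 and Clock, and in the second quantification Clock reached 94.2% in replicate 1 and 94.4% in replicate 2. Retained-intron transcripts, which keep an intron and are not translated into the full protein, held 33.1% of Per3 TPM in replicate 1 and 35.6% in replicate 2. They held 25.2% of Nr1d2 TPM in replicate 1 and 25.3% in replicate 2, and 10.7% and 9.88% of Clock TPM. In the second quantification they held 12.9% of Per3 TPM in replicate 1 and 32.2% in replicate 2, 11.8% and 15.9% of Nr1d2 TPM, and 5.43% and 5.13% of Clock TPM, so the shares depend on the quantification. Total RNA also holds unspliced precursors, and reads from introns cannot be told apart from retained-intron transcripts in these tables.

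**Figure D4:**
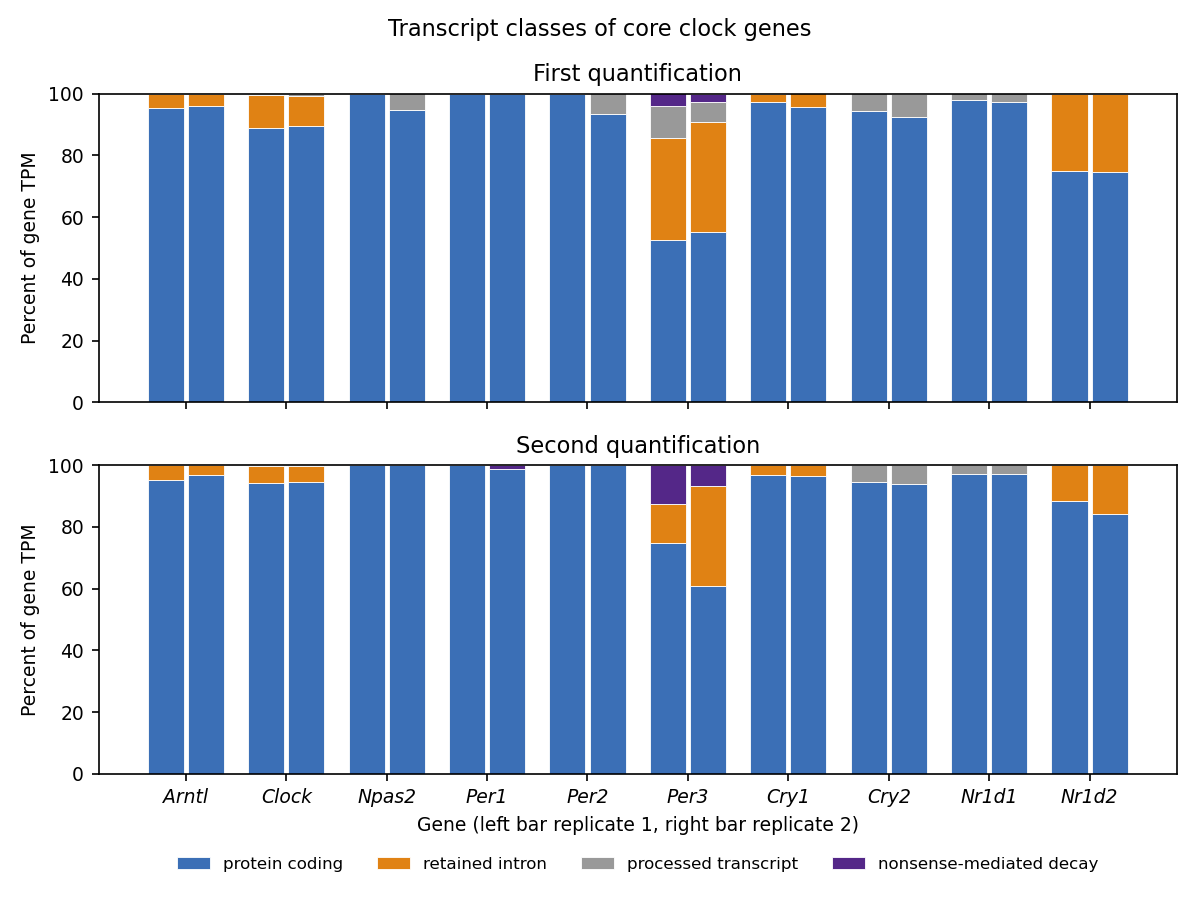
Percent of each core clock gene's TPM held by protein-coding, retained-intron, processed and nonsense-mediated decay transcripts in the first (top) and second (bottom) quantification, with replicate 1 as the left bar and replicate 2 as the right bar. Retained-intron transcripts hold the most in Per3 and Nr1d2, at 33.1% and 25.2% in replicate 1 of the first quantification, and less in the second.

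Of 8 annotated genes that overlap 6 of the clock genes, 3 share exon bases with them. Beside Thra these were Gm45355 in Arntl, with 0 expected counts in both hearts, and D930015M05Rik in Cry2, with 0 expected counts in replicate 1 and 2 in replicate 2. The intron of a clock gene was the place of most others, such as Ube2n-ps1 in Clock, with 345 expected counts in replicate 1 and 310 in replicate 2. Gm43658 in Clock had 24 and 12 expected counts in replicates 1 and 2, Gm3617 in Npas2 had 4 and 3, and Gm20428 in Npas2 had 0 in both. Per3 lies inside the span of Camta1 on the same strand, and Camta1 had a log2 ratio of -0.04.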

How the data were processed

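The assay was total RNA sequencing of 2 hearts with 300 ng of RNA per library, per the labels. The authors deposited expected counts per gene and transcript, made on mm10 with GENCODE M21 per the sample notes. TPM, FPKM and the percent of a gene's TPM per transcript were deposited by the authors beside them, as were credibility bounds of TPM, whose level the sources used here do not state. Estimated counts and TPM of a second quantification were deposited too, and were summed per gene. The sources used here do not name the tools and versions behind these tables.

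From the deposited expected counts, TMM factors were computed with edgeR 4.0.16 in R 4.3.3 after its expression filter, without spike-ins and numbered entries. Log2 ratios used a prior count of 1. With 1 group, no quasi-likelihood test was possible. Replicates are labelled biological and are separate biosamples. Whether they came from separate animals is not stated, so spread between animals cannot be told apart from technical spread. The code was tested on simulated data with planted changes larger than those of the clock genes. That simulation does not show how smaller differences are called. Alternatives used DESeq2 1.42.0 size factors, library and spike-in totals, FPKM, the second quantification and other thresholds. Tables and plots used Python 3.11.15, pandas 2.3.3, numpy 2.4.6, scipy 1.17.1 and matplotlib 3.10.9.

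The members, lists and rules were chosen with earlier results of these data known. Named genes are the 10 clock genes, genes of the lists past 2-fold, Dbp, Rora, Ciart, Bhlhe40, Bhlhe41, Csnk1d and Csnk1e, the highest and lowest of each list other than the cell type markers, which are given by sums and counts, and genes that overlap a clock gene. Some genes of these lists are not reported here. Timeless, Btrc, Ncor1, Hdac3, Tef, Nfil3, Tsc22d3, Fkbp5 and the liver and skeletal muscle markers were named after their values were seen.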

Additional observations from a re-analysis of the deposited data

How the results depend on the processing

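The 2 genes called, Npas2 and Per3, were the same under library totals, DESeq2 size factors, spike-in totals, no low-count filter, the second quantification and count minimums of 10 and 200. At 1.5-fold 6 clock genes were called and at 3-fold 0. At 5 TPM in place of 1 TPM, 5 clock genes were detected in both hearts. Leaving out a heart could not change the counts of genes detected and of leading transcripts, since both rules already require both hearts. Among the settings chosen after seeing the data, the ratio of gene TPM called 3 clock genes, adding Per1 at a log2 ratio of 1.00, and the main transcript and the protein-coding transcripts alone called 2 each. The direction of each clock gene was the same under all these settings. The median of the clock genes changed sign, at -0.02 by library totals, -0.01 by DESeq2 size factors, -0.07 by spike-in totals, -0.09 by gene TPM and -0.03 by main transcripts, against 0.02 in the second quantification. Levels moved by over 1 SD in 14 cases, 10 of them when TPM was rescaled over nuclear protein-coding genes, 3 by FPKM and 1 in the second quantification. Rescaled TPM and FPKM multiply every gene of a heart by the same factor, so those cases show a change of unit. Leaving out 1 of 2 hearts cannot move a mean by 1 SD, so it tests nothing here. No paired analysis was possible because the labels give 1 group. Replicate spread rests on 2 hearts. At this depth the counting interval was widest, among the clock genes, for Npas2 with 377 expected counts in replicate 1 and 181 in replicate 2.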
